A study of Arabidopsis thaliana with 12 samples.

Results

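Open chromatin was described in uncut root tips of Arabidopsis thaliana, the controls of a study of root tip regeneration. All uncut libraries of the series were taken, 3 of its 12 libraries, with all 107842 regions counted in them. The plants were Col-0 wild type, 7 days after sowing, grown on MS plates with sucrose, and the chromatin assay was ATAC-seq, in which the Tn5 transposase cuts and tags DNA that is not wrapped up. Each library came from 50000 nuclei of DAPI-stained cells. For these controls a piece of root matching the 200 µm domain collected from cut roots was excised, its walls were digested, and cells were sorted on DAPI alone, so every cell type of that piece could enter. The other 9 libraries came from cut roots carrying MP::MP-GFP, whose tip had been removed before collection, and were not used here. How much of the outermost tip the matching control piece held is not known here. The labels do not say whether the 3 libraries came from separate plants or cultures, so the spread between them may be technical.

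The root tip holds a quiescent centre surrounded by stem cells, with the root cap below it and files of stele, endodermis, cortex and epidermis above it. When the tip is lost, remaining cells can rebuild this niche, which makes the intact tip the starting point of the study. In plants, accessible DNA is found mostly at promoters and at the ends of genes, where nucleosomes are displaced and transcription factors bind. Highly repeated sequence, such as the ribosomal RNA gene arrays, is present in many copies per nucleus and can gather many reads at 1 reference position.

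The libraries held 31.8 M, 25.3 M and 22.5 M counts in regions for replicates 1, 2 and 3. The median region had 200, 162 and 147 counts, for which counting error alone gives a coefficient of variation of 7.07%, 7.86% and 8.25%. The observed coefficient of variation over the 3 libraries had a median of 10.3% per region. The biological coefficient of variation from edgeR, the spread beyond counting error, was 10.6%, and 7.51% without replicate 1. The rank correlation of CPM (counts scaled to a common total, scaled with TMM factors) across regions was 0.946 for replicates 1 and 2, 0.937 for replicates 1 and 3, and 0.957 for replicates 2 and 3. Regions within a library are not independent replicates, and much of this agreement was shared width: divided by region width, the same correlations were 0.719, 0.662 and 0.754. With a single group of 3 libraries no test was run, since an exact sign-flip test cannot go below p = 0.25 there. Each value is therefore given as mean ± SD over libraries, with the number of libraries that showed its direction.

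Signal per base was close to uniform over nearly all regions, and what set regions apart was mainly how wide they were. Widths had a median of 136 bp, with the middle 90% between 59 and 459 bp and a maximum of 2176 bp, and together the regions covered 19.5 Mb. CPM had a median of 6.41 and an 80% range of 3.49 to 17.0. The level, CPM per kb of region width, had a median of 47.9 with an 80% range of 36.9 to 65.3 only. Of all regions, 97.9% lay within 2-fold of the median level. Across regions the Spearman correlation of width with CPM was 0.935. Regions of 101 to 150 bp had a median of 5.69 CPM and those over 500 bp 30.6 CPM, while their median levels were 46.0 and 48.3 CPM per kb. Narrow regions formed an exception. The median level was 231 CPM per kb for regions of 1 to 10 bp, 75.3 for 11 to 50 bp and 51.0 for 51 to 100 bp. For the narrowest, CPM is the better measure because a read is longer than the region. Across all regions the Spearman correlation of width with level was -0.229, so level was not free of width. Neighbouring regions were separated by a median gap of 502 bp.

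**Figure D1:**
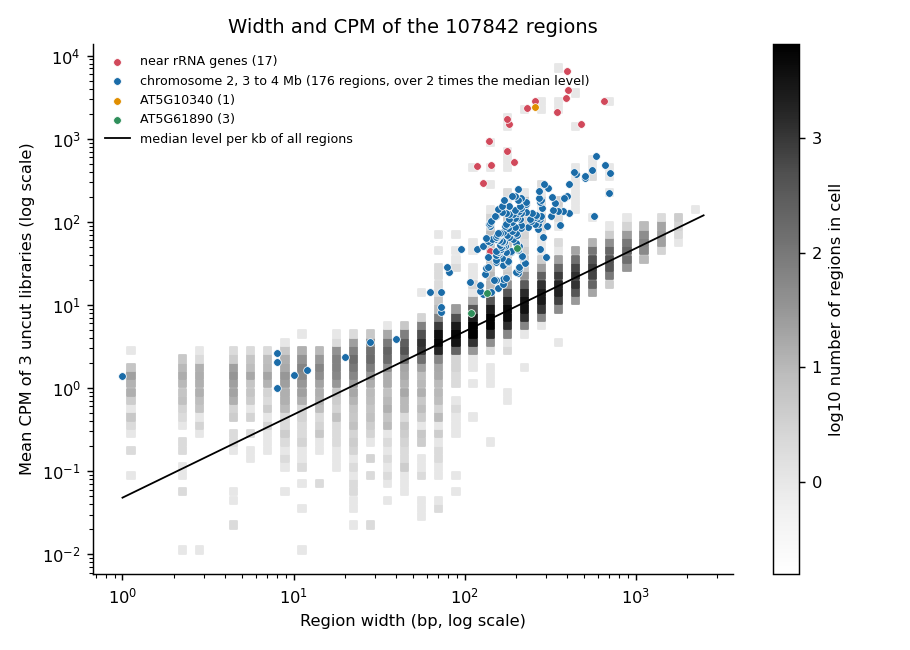
Mean CPM of the 3 uncut libraries against region width in bp, both on log scales, with grey shade giving the number of regions per cell and the line marking the median level of 47.9 CPM per kb. Most regions follow the line, and the 17 regions near rRNA genes, the region of AT5G10340 and 176 regions of chromosome 2 between 3 and 4 Mb lie above it.

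The strongest regions lay beside ribosomal RNA genes. These genes encode the structural RNA of the ribosome, and reference copies stand at the start of chromosome 2 and near the centromere of chromosome 3. The region with the most reads, chr3:14201404-14201799 (TAIR10), had 8353, 5681 and 5473 CPM in replicates 1, 2 and 3. Its neighbour chr3:14202039-14202443 had 4463, 3420 and 3632 CPM. At the end of chromosome 2, chr2:3286-3677 had 3829, 2663 and 2783 CPM. In all 3 regions replicate 1 was highest. Of the 8 regions with the highest CPM, 7 lay within 5 kb of an annotated rRNA gene. All 17 such regions together took 3.81%, 2.84% and 2.88% of the counts of replicates 1, 2 and 3, and 14 of them were highest in replicate 1. Their median levels were 8000, 4961 and 5083 CPM per kb.

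One region among the 8 strongest was not near an rRNA gene. It was chr5:3253082-3253338, 257 bp wide, classed as promoter-TSS and centred 88 bp downstream of the start of AT5G10340, an F-box gene, whose family mostly picks proteins for degradation. It had 3162, 1962 and 2025 CPM, a level of 9273 ± 2627 CPM per kb (SD, n = 3). Replicate 1 was again highest. It stood far from its peers: outside the centromere windows and away from rRNA genes, the region with the next highest CPM had 132. That region, chr1:20968297-20970472, was also the widest of all, 2176 bp, and lay in an exon of AT1G56070. It had 118, 146 and 130 CPM at an ordinary level of 60.5 CPM per kb. Whether the sequence at AT5G10340 also occurs in other copies of the genome was not tested.

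Other wide regions in exons of the arms included 4 with levels of 59.6 to 81.6 CPM per kb, above the median of 47.9. A region of 1633 bp at AT4G18670 had 126, 125 and 110 CPM. A region of 1576 bp in the gene HAM3, a GRAS-family factor that keeps meristems undifferentiated, had 126, 103 and 103 CPM. One of 1699 bp at the ammonium transporter AMT1;2 had 107, 99.4 and 97.4 CPM. One of 1177 bp at BG_PPAP, a beta-1,3-glucanase, had 103, 99.9 and 85.3 CPM. Their SD over libraries was at most 13.5 CPM, and AT4G18670 was above AMT1;2 and BG_PPAP in all 3 libraries. These regions outside the windows were picked after their values had been seen.

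By level instead of CPM, few regions of at least 100 bp outside the windows stood out. This choice of regions was made after the values were seen. After AT5G10340 came chr2:7190899-7191107, at the start of AT2G16586, a gene described as a transmembrane protein, with 97.4, 71.1 and 112 CPM and a level of 448 CPM per kb. An exon region of AT5G61890 came next with 239 CPM per kb, and is described further on. A 177 bp region at the 3' end of AT4G20700 had 32.7, 26.7 and 22.6 CPM, or 155 CPM per kb. Promoter regions of SIG4, a sigma factor of plastid RNA polymerase, and of ROPGEF1, an activator of ROP GTPases in polar cell growth, reached 120 and 118 CPM per kb. For SIG4 the libraries had 29.8, 33.6 and 31.5 CPM, and for ROPGEF1 19.5, 22.9 and 23.5 CPM. Both lay below the 99th percentile of all regions, narrow ones included, which was 130 CPM per kb.

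At the other end, the weakest regions held almost no reads. The lowest, chr1:21355273-21355274, was 2 bp wide and had 1 count in replicate 1 and 0 in replicates 2 and 3. At these depths 3 counts, the most that a count of 0 is compatible with, equal 0.0961, 0.119 and 0.131 CPM in replicates 1, 2 and 3, for counting error only. Regions with 0 counts were rare: 6, 22 and 15 of 107842. The 8 lowest were 2 to 29 bp wide and had 1 or 2 counts in all, and none of them had an annotation entry with identical coordinates. Beyond width, the lowest level, looked up after the values were seen, belonged to a 63 bp region, chr4:1346887-1346949, with 0, 2 and 0 counts. The set therefore holds some regions with almost no reads in any of these libraries.

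The 1% of regions with the highest CPM, 1078 regions, held 10.1% ± 0.497 of the counts (SD, n = 3). Without the regions near rRNA genes the top 1% held 7.20%. Ranked by level in place of CPM, it held 5.66%. These strong regions were wide, with a median of 810.5 bp, and had a median level of 62.8 CPM per kb. Exon regions made up 46.9% of them, against 40.6% of all regions, and promoter-TSS regions 12.4%, against 20.1%. The stretch of chromosome 2 between 3 and 4 Mb gave 12.2% of them, against 0.705% of all regions. Of the top 1% in each library, 880 were shared by replicates 1 and 2, 863 by replicates 1 and 3, and 959 by replicates 2 and 3.

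Gaps of 3-fold or more between libraries were rare among regions above the median CPM and sat in very few places. This cut was coarse, since 97.9% of all regions had a mean level within 2-fold of the median level. The count therefore says nothing on smaller differences, and it left out regions below the median CPM. Divided by width, the rank correlations between libraries were 0.662 to 0.754. Among 53921 regions above the median CPM, 104, or 0.193%, differed by 3-fold or more between the highest and the lowest library. Of these, 102 lay on chromosome 2 between 3 and 4 Mb and were all highest in replicate 2. In Col-0 this stretch carries an insertion of most of the mitochondrial genome. It held 1.42%, 3.08% and 2.16% of the counts of replicates 1, 2 and 3. Its 176 regions above 2 times the median level had median levels of 191, 590 and 397 CPM per kb, and 159 of them were highest in replicate 2. Over all 760 regions of the stretch replicate 2 was highest in 260, and the median levels were 55.0, 47.2 and 44.1 CPM per kb, with replicate 1 highest. Whether the reads there came from nuclear or mitochondrial DNA was not tested.

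The remaining 2 discordant regions both belonged to AT5G61890, an AP2/ERF transcription factor gene. The exon region chr5:24852915-24853118 had 31.3, 9.22 and 106 CPM, and the region at the gene's 3' end, chr5:24852689-24852823, had 8.72, 4.59 and 27.9 CPM. Replicate 3 was highest and replicate 2 lowest in both. Another region counted to the gene by its nearest start, 2648 bp upstream, had 7.95, 8.39 and 7.85 CPM. It was classed as exon and overlapped AT5G61900 and AT5G61910. The libraries thus differed less at this region of other genes than at the exon and 3' end regions of AT5G61890.

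**Figure D2:**
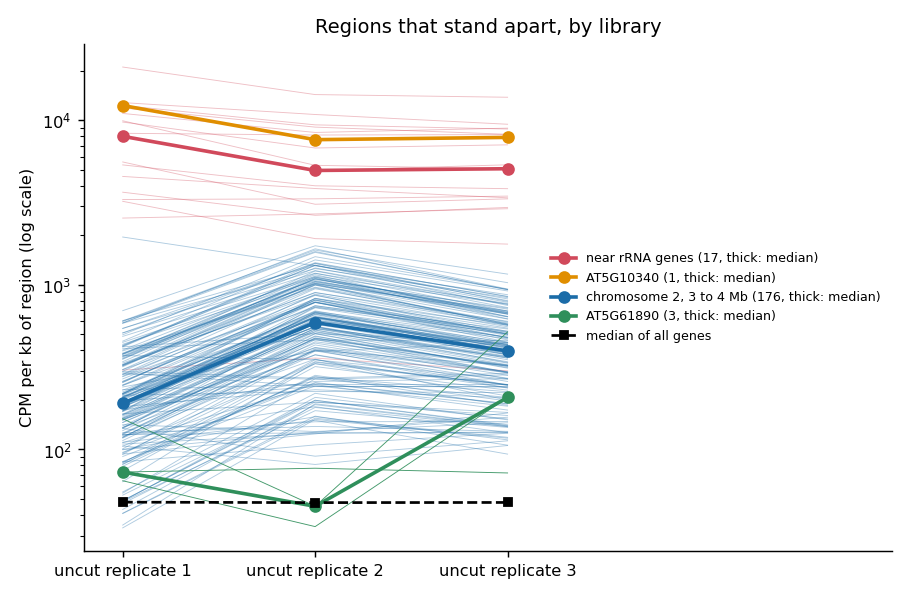
CPM per kb of region (log scale) in uncut replicates 1, 2 and 3, with thin lines for single regions, thick lines for their medians and a dashed line for the median of all genes. Of the regions near rRNA genes 14 of 17 are highest in replicate 1, as is the region at AT5G10340, while 159 of the 176 regions shown of chromosome 2 between 3 and 4 Mb are highest in replicate 2, and the exon and 3' end regions of AT5G61890 in replicate 3.

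By the authors' annotation, accessible regions lay mostly in or next to genes. The share of the genome in each class was not taken, so the shares below do not show enrichment. Exons held 40.6% of regions and 40.6% ± 0.278 of counts, promoter-TSS regions 20.1% of regions and 19.4% ± 0.255 of counts, and regions at transcription termination sites (TTS) 17.1% and 17.2% ± 0.107. Intergenic regions were 14.7% of regions with 12.6% ± 0.784 of counts, and introns 2.06% with 1.75% ± 0.0462 (SD, n = 3 for each). The last 5.49% of regions had no entry with identical coordinates in the tables used, yet held 8.45% of counts, and 11 of the 17 regions near rRNA genes were among them. Median levels differed little by class. They were 49.6 ± 0.867 CPM per kb at promoters, 48.8 ± 0.355 at TTS, 47.2 ± 0.262 in exons, 45.8 ± 2.87 between genes and 43.4 ± 1.36 in introns.

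Among the counted regions, which leave out all other DNA, promoter-TSS regions did not have clearly higher levels than intergenic regions. The ratio of their median levels was 0.992, 1.11 and 1.16 in replicates 1, 2 and 3, a mean of 1.09 ± 0.0844 (SD, n = 3), and above 1 in 2 of 3 libraries. The intergenic level was what varied, at 49.1, 44.8 and 43.6 CPM per kb, whereas promoters had 48.7, 49.7 and 50.4. Replicate 1, the deepest library, had the lowest ratio and replicate 3, the shallowest, the highest. The part of depth in this order was not tested. Among exon regions, those in the only exon of a gene were the widest, with a median of 213 bp and 9.52 ± 0.0147 CPM, followed by first exons with 178 bp and 8.32 ± 0.155 CPM. Last exons had 172 bp and 7.91 ± 0.0583 CPM, and internal exons 124 bp and 5.77 ± 0.0597 CPM. Their levels lay between 46.4 and 47.7 CPM per kb, so wide and narrow exon regions were alike per base.

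Around transcription start sites (TSS), the number and width of regions changed much more than the level. Regions whose authors' distance to the nearest TSS was at most 1 kb held 51.1% ± 0.163 of the counts of all regions with a distance, with 51.04% in replicate 1, 50.96% in replicate 2 and 51.28% in replicate 3. They made up 46.6% of these regions and 49.2% of their width. Within 500 bp the share of counts was 28.4%. The distribution was one-sided, with 34182 regions up to 1 kb downstream and 13273 up to 1 kb upstream. Counted in steps of 100 bp, regions were most frequent 200 to 300 bp downstream, where 4741 lay, and within 1 kb upstream least frequent at 300 to 200 bp, where 950 lay. The last 100 bp before the start held 1752 regions, the most of the steps within 1 kb upstream.

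Regions 100 to 500 bp downstream of starts were also the widest, while those 0 to 100 bp downstream had a median of 124 bp. Between 250 and 500 bp downstream the median width was 183 bp, with a median of 8.80 ± 0.183 CPM. In the last 100 bp upstream it was 122.5 bp, with 5.95 ± 0.339 CPM. The median level was 49.0 ± 1.05 CPM per kb in that stretch downstream and 50.05 ± 2.61 in the last 100 bp upstream. In the last 100 bp upstream the libraries had 47.2, 50.5 and 52.4 CPM per kb, and 250 to 500 bp downstream 50.2, 48.3 and 48.5. In these stretches replicate 1 was lowest upstream and highest downstream. Of the regions beyond 5 kb 81.0% lay in the centromere windows described further on, and levels there were 46.2 ± 4.42 CPM per kb upstream and 45.9 ± 3.98 downstream, with replicate 1 highest in both.

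**Figure D3:**
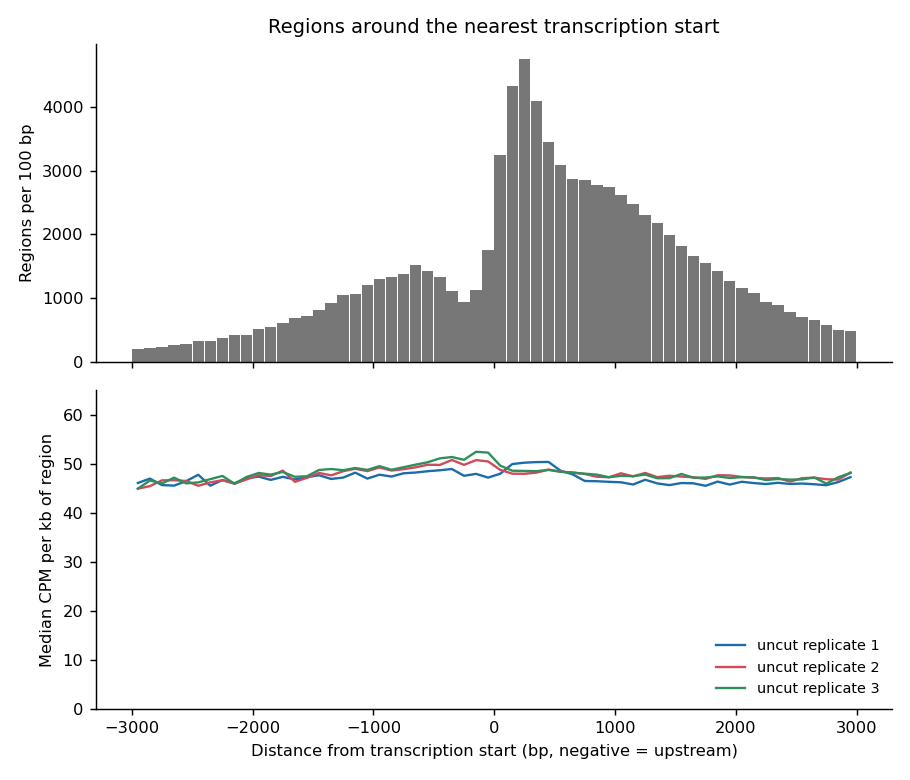
Number of regions per 100 bp (top) and median CPM per kb in each uncut library (bottom) against distance in bp from the nearest transcription start, negative upstream. Regions peak 200 to 300 bp downstream (4741) and dip 300 to 200 bp upstream (950), while the median levels within 1 kb stay between 46 and 53 CPM per kb.

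Within single genes, regions around the start had slightly higher levels than the other regions. Regions on both sides of the 1 kb limit existed for 16141 genes. The ratio of their level within 1 kb of the TSS to that farther away had a median of 1.04, 1.01 and 1.02 in replicates 1, 2 and 3. It was above 1 in all 3 libraries for 35.4% of these genes and below 1 in all 3 for 26.4%. The difference was thus small and changed sides in many genes.

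The 5 chromosomes carried regions at similar density, 892 to 919 per Mb, with median levels between 47.1 and 48.1 CPM per kb. Around the centromeres, where repeats and silenced chromatin prevail, regions were sparser and of other kinds. In windows of 2 Mb on either side of approximate centromere positions there were 605 to 812 regions per Mb, against 917 to 948 on the arms. Chromosome 1 had the sparsest window, with 605 regions per Mb against 948 on its arms. Intergenic regions made up 63.1% to 74.2% of regions in the windows, against 5.21% to 8.26% on the arms. The rise in density away from the centromere levelled off at about 4 Mb, where it reached 941 per Mb after 689 in the innermost 1 Mb.

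The median level varied less than the density, between 45.7 and 53.8 CPM per kb in steps of 1 Mb. The ratio of the windows' median level to that of the arms was 1.04, 0.936 and 0.892 in replicates 1, 2 and 3, a mean of 0.956 ± 0.0760 (SD, n = 3), below 1 in 2 of 3 libraries. Over the innermost 1 Mb the libraries had 51.5, 45.3 and 41.7 CPM per kb, and between 9 and 10 Mb 48.9, 49.6 and 49.4. The median coefficient of variation per region was 12.8% in the windows, against 9.98% on the arms. All 5 chromosomes showed the same order of libraries, with replicate 1 at 1.00 to 1.06 and replicate 3 at 0.868 to 0.907. Among intergenic regions alone the ratio was 1.00. The step 15 to 16 Mb out had the highest medians, 53.0, 55.0 and 52.1 CPM per kb. It held only 1110 regions in 1.12 Mb, since not every chromosome reaches that far.

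**Figure D4:**
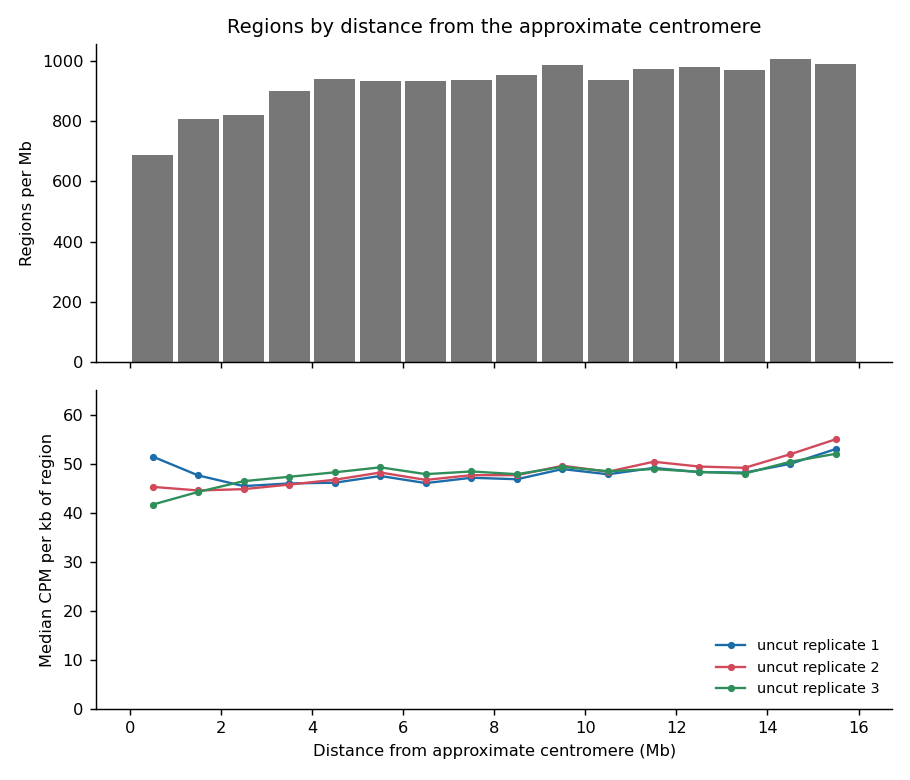
Regions per Mb (top) and median CPM per kb in each uncut library (bottom) against distance in Mb from the approximate centromere, all 5 chromosomes together. Density is lowest in the innermost 1 Mb (689), where the libraries also differ most, with replicate 1 at 51.5 and replicate 3 at 41.7 CPM per kb.

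Summed per gene, 28453 genes had at least 1 region, and 91.8% of annotated nuclear protein-coding loci were among them. A gene had a median of 3 regions and 24.9 CPM, with an 80% range of 7.14 to 58.5 CPM, and 21.1% had a single region. Summed CPM followed the number and width of regions: genes with 1, 2, 3 and 4 regions had medians of 7.94, 16.6, 24.6 and 31.2 CPM. The gene level, summed CPM over summed width, had a median of 47.7 CPM per kb and an 80% range of 39.0 to 61.2. Sums over a gene were more stable than single regions, with a median coefficient of variation of 6.69% over the libraries. In the authors' tables a region counts to the gene with the nearest start, which can be far away.

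Of the 12 genes with the highest sums, 2 stood beside rRNA genes, 9 others lay in the centromere windows and the last was AT5G10340. AT3G06355, a noncoding RNA gene within the rRNA locus of chromosome 3, had 4953, 3780 and 3504 CPM from 2 regions. AT5G10340, described above, had 2383 ± 675 CPM, and AT2G01008, next to the rRNA genes of chromosome 2, had 2371, 1288 and 1297 CPM. Replicate 1 was highest in each. These 9 genes in the windows had 43 to 94 regions each. AT4G06490, a gene of unknown function, had 94 regions up to 77249 bp away, 895 ± 145 CPM and an ordinary level of 47.1 ± 7.62 CPM per kb. AT5G32590 had 75 regions and 778 ± 121 CPM at 48.8 CPM per kb. Of these 9, AT4G06701, a noncoding RNA gene, alone had a raised level, 82.9 ± 4.73 CPM per kb. For most of these genes a high sum thus came with many distant regions.

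Outside the windows, after AT5G10340 and AT2G01008, the sums were lower. AT4G03830 had 475, 402 and 361 CPM from 50 regions, and AT4G03740 had 398, 338 and 301 CPM from 42. Among genes with a known product, MES11, a methyl esterase, had 316, 279 and 267 CPM from 27 regions. PHI-1, of a family named after a phosphate-induced gene of tobacco cells, had 241, 220 and 230 CPM from 21 regions. AGL44, a MADS-box factor of nitrate-dependent root growth also known as ANR1, had 193, 193 and 204 CPM from 19 regions, a level of 42.5 ± 1.38 CPM per kb. Libraries differed least in the last 2, with coefficients of variation of 4.73% and 3.25%. Within 1 kb of the TSS, AT4G03830, AT4G03740 and AGL44 had means of only 28.4, 15.2 and 18.5 CPM. Regions of MES11 and PHI-1 lay up to 16544 and 18486 bp from the start, so these sums do not describe the genes alone.

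The lowest sums belonged to genes with 1 very short region. AT5G05657 had 0.0961, 0.514 and 0.218 CPM from 3 bp. UBQ13, a polyubiquitin gene, had 1.12, 1.23 and 1.44 CPM from 11 bp, and HCF208, a factor for cytochrome b6f assembly in chloroplasts, 0.961, 1.27 and 1.57 CPM from 9 bp. AT4G22754, a transfer RNA gene, had 1.03, 0.989 and 1.79 CPM from 1 bp. Their low sums go with these widths: UBQ13 had 115 CPM per kb and HCF208 141 CPM per kb.

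Restricted to regions within 1 kb of the TSS, 25799 genes had a value, with a median level of 48.7 CPM per kb and an 80% range of 38.5 to 63.9. The 3 highest were again AT3G06355, AT5G10340 and AT2G01008. Next stood AT3G57340, a DnaJ gene, and the tRNA gene AT4G22754, each through 1 region of 1 bp with under 2 CPM in each library. The other 7 of the 12 highest all belonged to chromosome 2 near the mitochondrial insertion. Among them AT2G05365, a noncoding RNA gene, had 242, 773 and 470 CPM. AT2G07795, described as a transmembrane protein, had 166, 501 and 309 CPM. All 7 had replicate 2 highest and replicate 1 lowest.

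With at least 100 bp of such regions and outside the windows, a choice made after the values were seen, the start-proximal level dropped quickly to near the bulk. AT2G16586 had 425 ± 103 CPM per kb and AT5G61890 239 ± 248, AT5G61890 through replicate 3. Below them stood CER1, an enzyme of wax alkane synthesis, with 16.6, 17.0 and 14.1 CPM and 112 ± 11.2 CPM per kb. Its 142 bp were the sum of 3 regions, and narrow regions had higher levels. A dCTP pyrophosphatase-like gene, AT3G25400, had 20.5, 21.9 and 20.8 CPM and 109 ± 3.93 CPM per kb. The casein kinase gene ckl12 had 34.9, 34.8 and 36.0 CPM and 106 ± 1.98 CPM per kb. FIS1B, a factor of mitochondrial and peroxisomal division, had 40.2, 26.7 and 22.5 CPM, so that its libraries differed more. Ranked by CPM near the start, GGR, described as a geranylgeranyl reductase, had 119, 118 and 105 CPM over 1305 bp. The subtilase gene AT3G14067 had 98.4, 97.6 and 91.2 CPM over 1304 bp.

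The low end of start-proximal level covers genes with a region near the start, since genes without one have no value. TRANS11, described as a translocase, was lowest with 5.32, 5.97 and 5.28 CPM, or 26.7 ± 1.89 CPM per kb. THO7, a subunit of the THO complex that couples transcription to mRNA export, had 26.8 ± 2.01, and SMP1, a splicing factor, 26.9 ± 3.42 CPM per kb. The fucosyltransferase gene FUT10 had 27.6 ± 1.74 CPM per kb. The 12 lowest genes lay between 26.7 and 27.8 CPM per kb, and each had 1 region in reach of its start. Between these genes and CER1 or ckl12 the start-proximal level thus differed by less than 5-fold.

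Lists of marker genes were compared with all genes by the median of their gene levels. These levels are accessibility in a mix of cells, where a site open in few cells and one partly open in many cannot be told apart. Of 250 listed genes, 239 had a region. Root lists did not stand above the other lists as a group. The control piece matched a domain of roots that had lost their tip, so it may have held few niche and cap cells. Medians over the 3 libraries were 44.0 ± 1.33 CPM per kb for the stem cell niche, 45.4 ± 1.997 for root cap and columella, 45.6 ± 1.58 for the stele, 46.1 ± 1.64 for epidermis and root hair and 48.3 ± 1.15 for endodermis and cortex. The median of all genes was 47.7 ± 0.154 CPM per kb. The niche, root cap, stele and epidermis lists were below all genes in 3 of 3 libraries, and the endodermis and cortex list was above in 2 of 3. With regions within 1 kb of the TSS alone, epidermis and root hair had 50.2 ± 1.13 and endodermis and cortex 49.9 ± 2.47, both above the 48.5 ± 0.265 of all genes, while the niche had 43.0 ± 0.889.

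In the stem cell niche list, 4 of 11 genes with a region were above the median of all genes. SHR, a GRAS factor that moves from the stele to specify the endodermis, had 61.5, 58.3 and 50.4 CPM per kb. SCR, its partner in the quiescent centre and endodermis, had 57.9, 59.5 and 52.5. Both were above the median of all genes in every library. WOX5, the homeobox factor of the quiescent centre, and the PLETHORA genes PLT1 and PLT2, which set root stem cell identity, were added for their role after the values were known. WOX5 had 9.39, 9.49 and 9.90 CPM from 1 region, or 48.0 ± 1.34 CPM per kb. PLT1 had 38.9, 39.4 and 37.0 CPM and PLT2 66.1, 56.4 and 60.8 CPM, or 51.00 ± 1.68 and 45.1 ± 3.59 CPM per kb. The lowest were TEL1, an RNA-binding protein gene of the quiescent centre, with 37.8 ± 2.46, and RGF2, which encodes a peptide that maintains the meristem, with 36.9 ± 1.69 CPM per kb. AGL42 and RGF1 had no region assigned.

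In root cap and columella, CEL5, a cellulase gene of the cap, had 51.5 ± 0.501 CPM per kb and PIN3, an auxin exporter of columella cells, 49.1 ± 3.97. ARF16 and ARF10, auxin response factors needed for columella identity, had 39.3 ± 1.22 and 38.4 ± 2.11. In the stele, HB-8, a class III homeodomain factor of the procambium, had 62.4, 54.7 and 48.5 CPM per kb, and AHP6, an inhibitor of cytokinin signalling in protoxylem, 57.0, 55.8 and 50.4. The receptor kinase gene PXY of the cambium had 39.9 ± 1.86 and the vascular bHLH gene LHW 38.3 ± 1.29. Replicate 1 was highest in HB-8, AHP6 and PIN3.

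Among endodermis and cortex genes, CASP1, a scaffold of the Casparian strip, had 66.7, 54.6 and 55.3 CPM per kb and the cortex gene CO2 63.5, 55.1 and 57.4. CASP5, from the same family as CASP1, had 37.5, 38.1 and 37.3, below CASP1 in each library. JKD, a zinc-finger partner of SHR and SCR, had 41.0 ± 1.36. GL2, the homeodomain factor that keeps certain root epidermal cells hairless, had the highest level of the root lists, with 81.5, 72.3 and 64.1 CPM per kb, above 97.8% of all genes. WER, the MYB factor upstream of GL2, had 55.0 ± 7.14 from a single region of 54 bp. RSL4, a bHLH factor that drives root hair growth, had 39.5 ± 2.09, and MYB23, which acts with WER, 38.6 ± 3.27.

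Hormone, cell cycle and wound lists lay close to all genes. Their medians were 46.0 ± 1.69 CPM per kb for auxin, 46.1 ± 1.03 for cytokinin, 47.1 ± 1.17 for the cell cycle and 46.9 ± 1.12 for wound and stress response, against 47.7 ± 0.154 for all genes. Cytokinin genes were below all genes in 3 of 3 libraries. Near the TSS alone the medians were 48.3 ± 1.76 for auxin, 45.3 ± 3.30 for cytokinin, 48.2 ± 2.07 for the cell cycle and 46.3 ± 2.12 for wound and stress response, against 48.5 ± 0.265 for all genes. The distance of these lists from all genes was no larger than the spread between libraries in most cases. Its side depended on the summary for the auxin, cell cycle and wound lists, while the cytokinin list was below all genes in each summary. Taken over each gene's mean level, the wound list had 47.79 against 47.72 for all genes, and near the TSS the cell cycle list had 50.2 against 48.7.

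TAA1, an enzyme of auxin synthesis, was the most open auxin gene with 77.4, 72.5 and 57.9 CPM per kb, and its relative TAR2, from the same enzyme family, had 39.95 ± 0.701. ARF7, an activator of auxin response, had 57.3 ± 2.67, and YUC9, an enzyme of the next step of auxin synthesis, 38.7 ± 1.68. Among cytokinin genes, IPT3, which makes the hormone, had 64.3 ± 3.04 and CKX5, which degrades it, 62.8 ± 5.35. The response regulators ARR10 and ARR7 had 39.2 ± 3.80 and 38.7 ± 4.29, and ARR15 had no region. CYCD3;1, a D-type cyclin of cell cycle entry, had 63.9, 63.4 and 62.1 CPM per kb, and RBR1, the retinoblastoma homologue, 60.1 ± 1.63. The mitotic cyclins CYCA1;1 and CYCB2;1 were lowest, with 38.2 ± 2.33 and 35.6 ± 2.21.

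Wound and stress genes showed the same spread in these uncut roots. Their pieces were excised and the walls digested before the assay, and the part of this handling was not tested. The zinc-finger repressor ZAT10 had 64.6, 73.1 and 65.1 CPM, or 67.0 ± 4.75 CPM per kb, above 95.5% of all genes. ZAT12 had 57.6 ± 6.73 CPM per kb. CML38, a calmodulin-like gene, had 36.6 ± 4.48 and ERF1, an ethylene response factor, 36.1 ± 1.25. The jasmonate repressor genes JAZ1 and JAZ8 and the touch-response gene TCH4 had no region assigned.

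Among the lists for other organs, seed maturation, photosynthesis and pollen stood above all root lists, and floral identity stood below them. Seed maturation genes had a median of 56.9 ± 4.48 CPM per kb and photosynthesis genes 55.0 ± 2.45, both above the 47.7 ± 0.154 of all genes in 3 of 3 libraries. Reference genes of steady expression had 53.3 ± 3.03 and pollen genes 51.3 ± 0.333, also in 3 of 3. Shoot meristem genes had 47.8 ± 2.70, stomatal lineage genes 45.8 ± 3.60 and floral identity genes 43.7 ± 2.82. Shoot meristem genes were above all genes in 1 of 3 libraries. Near the TSS the seed, photosynthesis, reference and pollen lists were also above all genes, with medians of 57.1, 55.4, 54.9 and 52.7 against 48.5, and the shoot meristem list was below, with 45.7. The marker lists therefore gave no check of the labelled tissue in these values. By summed CPM, root cap and columella came highest with 60.4 ± 1.88 and floral identity lowest with 8.87 ± 0.770, where their genes had median region widths of 1250 and 224 bp.

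**Figure D5:**
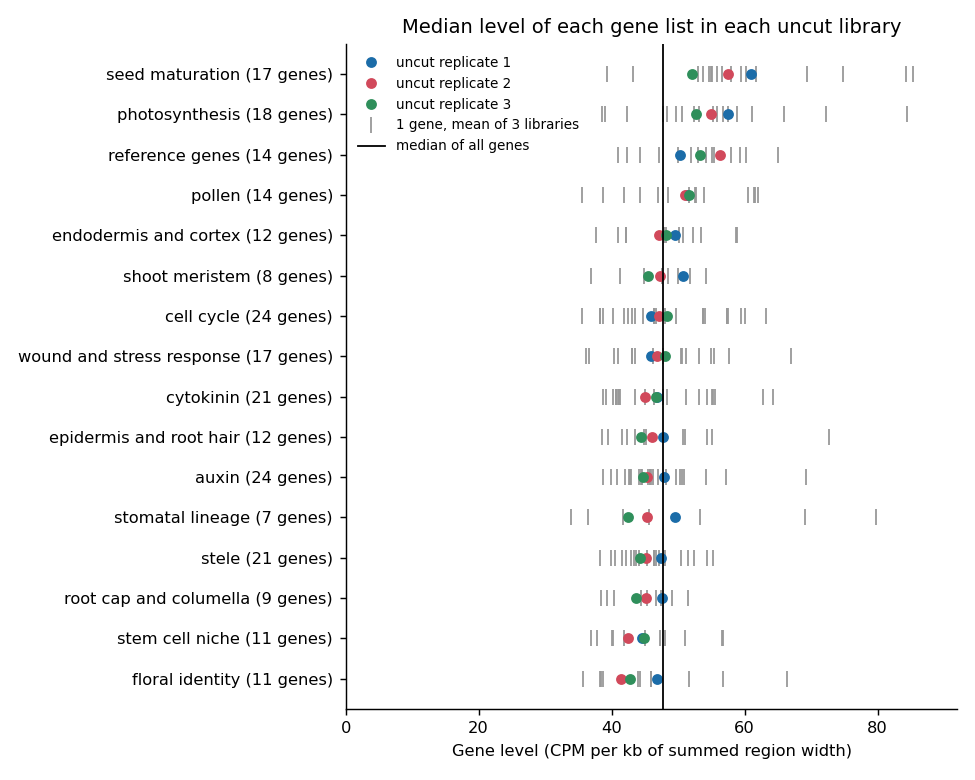
Gene level in CPM per kb of summed region width for 16 gene lists, with coloured points for the list median in each uncut library, grey ticks for single genes (mean of 3 libraries) and a line for the median of all genes, 47.7. Seed maturation, photosynthesis, reference and pollen lists lie right of the line in all 3 libraries, and single genes of most lists spread from under 40 to over 55.

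OLEO1, an oleosin of seed oil bodies, had 88.8, 88.6 and 78.4 CPM per kb, and CRA1, a seed storage globulin, 97.5, 84.4 and 71.1. Both were above 99.4% of all genes. FUS3 and ABI3, B3 factors that switch these genes on in seeds, were the least open of the list with 39.3 ± 2.09 and 43.2 ± 2.60. Among photosynthesis genes, LHCB6, an antenna protein of photosystem II, had 81.7, 95.4 and 76.1 CPM per kb, and LHCB4.1 72.2 ± 4.36, whereas LHCB5 had 39.0 ± 1.93 and RBCS2B, a Rubisco small subunit, 38.6 ± 2.102. TUA4 and TUB4, tubulins, led the reference genes with 65.1 ± 3.08 and 60.2 ± 4.18, and ACT8, an actin, was lowest with 40.9 ± 6.01.

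In the stomatal lineage, EPF1 and TMM had the highest and FAMA and MUTE the lowest levels of the 7 genes with a region. EPF1, a secreted peptide that spaces stomata, had 85.8, 78.0 and 75.5 CPM per kb, and TMM, a receptor-like protein that perceives such peptides, 75.7, 69.6 and 61.8. The bHLH factors FAMA and MUTE, which drive guard cell formation, had 36.4 ± 1.33 and 33.8 ± 0.0850, MUTE above only 1.19% of all genes. In pollen, the factors MYB101 and MYB97 had 62.0 ± 5.91 and 61.5 ± 3.73, and the sperm gene GEX2 35.5 ± 3.94. The floral factor LFY had 56.8 ± 3.81, and SHP1 and SHP2, carpel MADS-box factors, 35.7 ± 3.57 and 38.3 ± 3.75. In the shoot meristem list CUC1, a boundary NAC factor, had 54.1 ± 1.48 and CLV3, the stem cell peptide, 51.8 ± 6.95, above STM, a KNOX factor that sustains the meristem, with 41.3 ± 4.98. No region was assigned to KAT1, SEP1, STK and CAL, or to YLS8 among reference genes.

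Gene families, taken from the authors' gene descriptions after the values were seen, ranged from 43.6 to 52.5 CPM per kb in median level. UDP-glycosyltransferases, which attach sugars to hormones and metabolites, had 52.9, 52.4 and 52.2 CPM per kb over 136 genes. Lipid transfer proteins had 54.6, 51.6 and 51.4 over 124 genes, expansins, which loosen walls, 50.5 ± 3.42 over 32, and ribosomal proteins 50.2 ± 0.695 over 307. At the low end, NBS-LRR immune receptors had 41.3, 44.3 and 45.1 over 123 genes, MYB domain proteins 43.6, 43.0 and 44.5 over 119, and MADS-box factors 44.0 ± 0.617 over 107. F-box proteins had 44.2 ± 0.679 over 598 genes, the family to which the extreme AT5G10340 belongs. The 2 highest families were above and the 4 lowest below the median of all genes in 3 of 3 libraries. Near the TSS both ends kept their side of all genes, with 54.4 for UDP-glycosyltransferases and 43.6 for NBS-LRR receptors, against 48.5.

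Among genes above the median summed CPM, the largest coefficients of variation were those already met. AT5G61890 had 48.0, 22.2 and 141 CPM, or 88.9%. The next 5 genes, all on chromosome 2 at the mitochondrial insertion, had 53.5% to 58.6%, such as AT2G07638 with 131, 430 and 263 CPM, and each had replicate 2 highest. The most even genes were AT1G16260, a wall-associated kinase gene, with 25.9, 25.9 and 25.8 CPM, AT3G45900, described as a ribonuclease P subunit-like gene, with 46.6, 46.6 and 46.6 CPM, AT5G40490, an RNA-binding protein gene, and AT5G63120, an RNA helicase-type gene. Their coefficients of variation were 0.0344% to 0.0441%, far below what counting error allows on average, as the smallest of many values are bound to be.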

How the data were processed

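The deposited files hold raw read counts per region, 1 whole-number value for each region and library, made by the authors. Per the submitters' processing notes the tools were HOMER, MACS2, Bowtie2, DESeq2 and SAMtools, with no role or version, on TAIR10. How duplicates were handled, peaks called and reads counted, and on which libraries peaks rest, is not given in the sources used here. PCR copies may thus be counted, and errors from counts cover counting only.

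Annotation class, gene and distance to the nearest TSS, a value in bp with the unit other, come from the authors' deposited tables for 2.5 h and 14 h, matched by identical coordinates for 101924 of 107842 regions. Of 9055 regions in both tables, 9037 had the same gene. The 16 h table, whose gene columns are out of step with its regions, was not used, nor were 18 columns of normalized signal per library. Of 28453 genes, 28414 matched a locus in the RefSeq table (TAIR10.1, used for names and neighbours), and 19 names turned into dates were resolved. Width is end minus start plus 1.

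Counts were scaled with TMM (edgeR 4.0.16, R 4.3.3) over the 3 uncut libraries (factors 0.982, 0.997 and 1.02) to CPM, and divided by width in kb for levels. No count filter was applied. The estimate of the biological coefficient of variation was tested on simulated data. Tables were made with pandas 2.3.3. Centromere windows are 2 Mb on either side of 15, 4, 14, 4 and 12 Mb on chromosomes 1 to 5, approximate positions. Because the libraries form 1 group, no comparison was tested.

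Members, lists and rules were chosen with earlier results of these data known. Named regions are the 8 highest and 8 lowest by CPM and the 8 highest by level. Named genes are the 12 highest and 8 lowest by summed CPM and the 12 highest and 12 lowest by level near the TSS (the highest also outside the windows, 10 each). They also take the 2 highest and 2 lowest members of each of 16 lists, and the 6 largest and 4 smallest coefficients of variation above the median CPM. Further names, whether marked so in the text or not, were chosen after their values were seen. Alternatives covered scaling, filters, windows, widths and each library left out. Motif counts and sequences were not analysed here.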

Additional observations from a re-analysis of the deposited data

How the results depend on the processing

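Leaving out each library in turn kept the mean of both ratios on its side of 1. The promoter to intergenic ratio ranged from 1.05 to 1.13, the centromere to arm ratio from 0.914 to 0.988, the share of counts within 1 kb of a TSS from 51.0% to 51.2%, the share of counts in the top 1% of regions from 9.85% to 10.3%, and the number of lists whose median gene mean lay above that of all genes from 6 to 7 of 16. The biological coefficient of variation ranged from 7.51% to 12.1% and was lowest without replicate 1. Choices of what is counted moved values by construction: within 500 bp of a TSS the share was 28.4%, with regions matched by overlap 51.6%, and the top 1% held 9.09% without chromosome 2 from 3 to 4 Mb, 5.66% ranked by CPM per kb and 7.20% without regions near rRNA genes. With summed CPM in place of level, 12 lists lay above all genes, against 7, and with regions near the TSS 8 did. Total counts without TMM and DESeq2 size factors (version 1.42.0) each kept all 114 values of named genes, regions and lists within 1 SD. This check was weak. The TMM factors were close to 1 and the DESeq2 factors were set to the same mean scale, so means over the 3 libraries could hardly move. Sums over regions within 1 kb of the TSS moved 37 values and kept 54. The planned motif shares were not run. No paired analysis was possible because the 3 libraries form 1 group with nothing to pair. Depth limits the level of a single median region to about the 7.07% to 8.25% of counting error.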
